A study of Rattus norvegicus with 48 samples.

Results

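The microRNAs (miRNAs) of the proximal tubule were set against those of the collecting duct in 6 small RNA libraries, 3 from each region, out of the 11 libraries of the series (24 of 44 runs). Members were taken by the labelled kidney region, and each proximal tubule library was paired with the collecting duct library of the same rat. Both groups came from the same 3 naive Sprague-Dawley rats, males of 6 months, with no transgene or agent in either. Both regions were cut by laser capture from 8 µm frozen kidney sections, the proximal tubule after fluorescent staining for glutathione S-transferase and the collecting duct after staining for aquaporin-2. TruSeq small RNA libraries were sequenced on a HiSeq2000 as single reads of 50 bp, each on 4 flow cells. The table holds 188 mature miRNAs, all of which were compared.

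The proximal tubule is the first part of the nephron tubule and takes back most of the filtered salt, glucose and amino acids across a brush border. The collecting duct is the last part, where principal cells move water through aquaporin-2 and intercalated cells handle acid and base. A miRNA guides its protein partner to mRNAs mainly through its seed, the bases 2 to 8 from its 5′ end, so miRNAs with the same seed can be read against the same sites.

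Mature sequences were matched by name in RefSeq (build GRCr8) for 172 of the 188 miRNAs, and are printed 5′ to 3′ with the seed in capitals. The first set is shown because these miRNAs had the differences that stayed past the threshold in every setting tried. The first 3 were higher in the proximal tubule and the last 2 were lower there.
miR-192-5p: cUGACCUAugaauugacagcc
miR-194-5p: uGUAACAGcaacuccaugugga
miR-541-5p: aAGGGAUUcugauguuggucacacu
miR-31a-5p: aGGCAAGAugcuggcauagcug
miR-92b-3p: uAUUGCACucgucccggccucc

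The next set holds the seed groups of more than 1 miRNA whose summed level differed between the regions. miRNAs without a matched sequence, such as miR-30d-5p, entered no group. Each group shares the seed in capitals, and some members differ from each other at 1 base in all, such as miR-27a-3p and miR-27b-3p.
miR-25-3p: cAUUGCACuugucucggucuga
miR-92a-3p: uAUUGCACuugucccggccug
miR-27a-3p: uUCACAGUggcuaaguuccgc
miR-27b-3p: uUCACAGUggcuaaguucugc
miR-30a-5p: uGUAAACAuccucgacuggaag
miR-30c-5p: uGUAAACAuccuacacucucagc
miR-30e-5p: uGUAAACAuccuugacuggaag
miR-15b-5p: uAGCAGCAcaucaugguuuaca
miR-16-5p: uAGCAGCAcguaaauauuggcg
miR-195-5p: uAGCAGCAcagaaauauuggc
miR-322-5p: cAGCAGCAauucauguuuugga
miR-497-5p: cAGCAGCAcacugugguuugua

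The last set is shown because the values of these miRNAs are shared with, or may include, reads of an opposite strand. miR-3574 is the reverse complement of miR-210-3p, and the table gives both the same value in every run. The same holds for let-7a-5p and miR-3596a, for miR-181a-1-3p and miR-3570, and for miR-3557-3p and miR-378a-5p. It does not hold for every complementary pair. In proximal tubule miR-130a-3p and miR-3590-5p, complementary over 21 bases, had means of 246 and 3.90. There miR-125b-5p and miR-3588, complementary over 22 bases, had close but unequal means of 202 and 200. miR-3557-5p is complementary over 21 bases to miR-378a-3p, which has no column of its own and is printed without a marked seed.
miR-210-3p: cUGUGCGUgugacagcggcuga
miR-3574: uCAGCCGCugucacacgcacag
miR-3557-5p: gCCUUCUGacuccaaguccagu
miR-378a-3p: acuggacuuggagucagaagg

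Values are TMM-normalised read levels without a unit, and a library's value is the mean of its 4 runs. The reads behind the 188 miRNAs were estimated at 241314 to 914254 per library in proximal tubule and 631114 to 788820 in collecting duct. The proximal tubule library of rat 3 was the shallowest. Over the 67 miRNAs whose mean reached 100, the 4 runs of a library had a median SD of 0.13 in log2 units. Between rats that SD was 0.28 in proximal tubule and 0.34 in collecting duct. The stained proteins cannot be read from miRNAs, so the labelled regions were not checked here. The miRNA lists given below were chosen with earlier results of these data known and are no such check. In captured tissue, fewer cells of a type and less of a miRNA per cell cannot be told apart.

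By limma with Benjamini-Hochberg adjustment, 42 of 188 miRNAs (22.3%) differed between the regions at an adjusted p below 0.05. Of these, 19 were higher in the proximal tubule (10.1%) and 23 were lower (12.2%). All 42 had the same direction in 3 of 3 rats, and 39 of them had no overlap between the 3 values of one region and the 3 of the other. The calls were made on these same values, so neither count adds support to them. Some miRNAs that did not pass, such as let-7e-5p, also had 1 direction in 3 of 3 rats. Over all 188 miRNAs the median log2 difference, proximal tubule minus collecting duct, was 0.16, and 124 of them overlapped between the regions. The direction split depended on scaling, with 33 higher and 19 lower when every library was set to the same total, and 17 higher and 32 lower when that total left out miR-10a-5p. The number of calls fell to 9 without the variance trend, to 5 without rat 1 and to 20 without rat 2, and rose to 54 without rat 3. An exact sign-flip test of 1 miRNA over 3 pairs cannot go below 0.25.

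**Figure D1:**
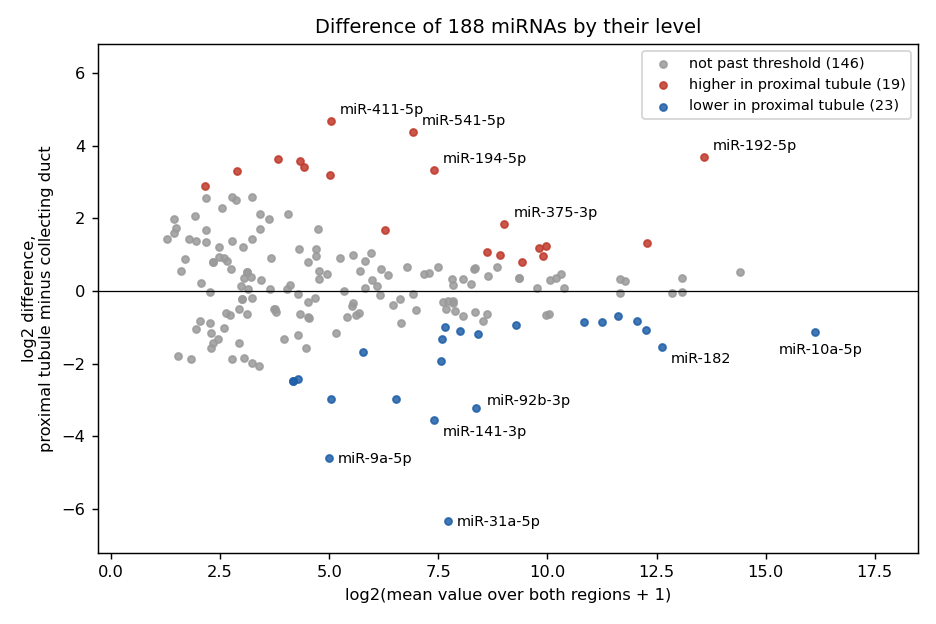
Each point is 1 of 188 miRNAs, with the log2 of its mean value over both regions plus 1 on the horizontal axis and its log2 difference (proximal tubule minus collecting duct) on the vertical axis. Red and blue points passed an adjusted p of 0.05, and miR-411-5p and miR-31a-5p lie farthest from 0 in the 2 directions.

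A few miRNAs made up most of each library. miR-10a-5p, encoded in a Hox gene cluster, ranked first in both regions and took 25.1% ± 1.97 of the summed value in proximal tubule and 47.0% ± 3.39 in collecting duct (SD, n = 3). Its values were 37746, 39998 and 56750.0 in the proximal tubule of rats 1 to 3 and 92719, 119558 and 81729 in the collecting duct. Every collecting duct value lay above every proximal tubule value, and the log2 difference was −1.14 ± 0.28 (SE) with an adjusted p of 0.0018. This call was lost without rat 1 (adjusted p 0.2) and without rat 2 (0.19). Quantile normalization, which sets the top miRNA of every library to 1 level, puts its difference at 0.

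miR-22-3p ranked next in both regions, at 14.4% and 8.57%. Its log2 difference of 0.52 ± 0.27 did not pass the test (adjusted p 0.18). Behind them came miR-192-5p in the proximal tubule, with 13.0% ± 2.73, against 0.852% ± 0.160 and rank 16 in the collecting duct. The collecting duct had miR-182 there, with 4.23% ± 1.76, against 1.77% ± 1.00 and rank 10 in the proximal tubule. miR-191a-5p and miR-26a-5p completed the top 5 of both regions and did not pass the test (adjusted p 0.34 and 0.92).

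**Figure D2:**
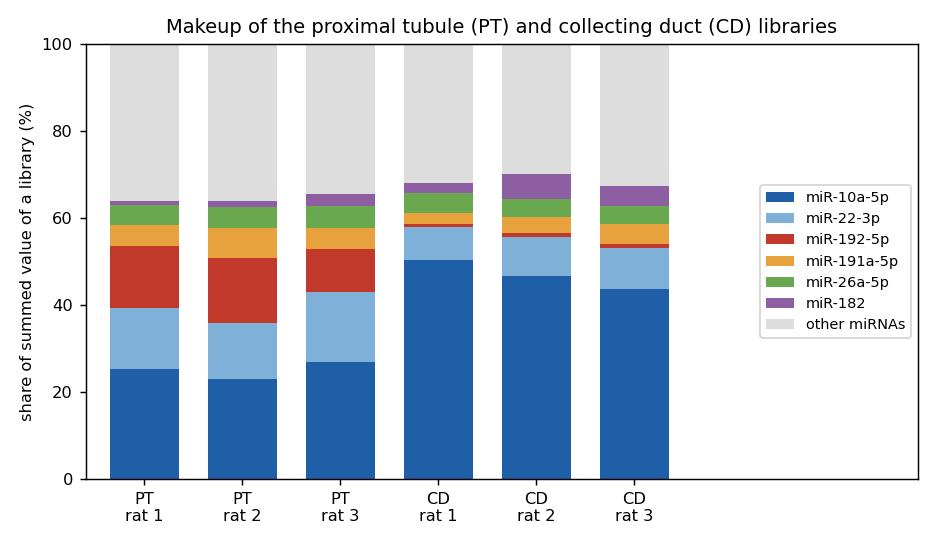
Bars give the share of each library's summed value (%) taken by the 6 miRNAs that were among the 5 most abundant of either region, with the others in grey, for proximal tubule (PT) and collecting duct (CD) of each rat. The red band of miR-192-5p is wide in the 3 proximal tubule libraries and narrow in the 3 collecting duct libraries, and the dark blue band of miR-10a-5p is wider in the collecting duct.

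Among the miRNAs higher in the proximal tubule, miR-192-5p and miR-194-5p are co-transcribed and known to be abundant in kidney and gut epithelium. miR-192-5p had values of 21065, 26006 and 20807 in proximal tubule and 1238, 2298 and 1837 in collecting duct. The groups lay far apart, with a 12.9-fold difference on the log2(value + 1) scale (log2 3.69 ± 0.26, adjusted p 3.5e-17). miR-194-5p had values of 233, 360.4 and 323 against 21.4, 42.4 and 28.1.

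Again no collecting duct library reached a proximal tubule library, and the difference was 10.1-fold (log2 3.33 ± 0.42, adjusted p 6.9e-09). In GRCr8 a copy of miR-194-5p lies within 10000 bases of miR-192-5p on chromosome 1, and another lies on chromosome 13 within the span of Iars2, so its value can hold reads of both. Both miRNAs passed the test without any 1 rat and in all 16 other settings. Over those 16 settings the largest adjusted p of each was 0.02. With 1 rat left out it was 0.0044 for miR-192-5p and 0.033 for miR-194-5p.

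The Dlk1-Dio3 cluster, an imprinted region on chromosome 6 that is transcribed from the maternal allele, had 5 measured miRNAs. Of these, 3 were higher in the proximal tubule and 0 lower, against 10.1% higher and 12.2% lower among all 188. All 5 differences were above 0, with a median of 3.58 against 0.16 for all miRNAs. Their summed values were 352 to 405 in proximal tubule and 17.2 to 41.6 in collecting duct. The Dlk1-Dio3 list holds 47 names, and low counts were filtered from the table, so members low in every library are absent. The shared direction of the 5 is therefore not independent of that filter. miR-541-5p had values of 257, 253 and 178 in the proximal tubule and 6.07, 13.8 and 12.5 in the collecting duct. It did not overlap, at 20.9-fold (log2 4.38 ± 0.52, adjusted p 1.4e-09).

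miR-411-5p had values of 85.7, 47.0 and 49.2 against 0.201, 9.09 and 0, so the collecting duct of rat 3 held none in any run. Its log2 difference was 4.68 ± 0.86 (adjusted p 2.5e-05), and it lost the call without rat 1 (adjusted p 0.15). miR-409b had values of 44.9, 35.5 and 24.7 against 4.87, 4.57 and 0 (log2 3.58 ± 0.86, adjusted p 0.0013, and 0.14 without rat 1). With a pseudocount of 5 the differences of miR-411-5p and miR-409b were 3.12 and 2.34. miR-409b is complementary over 20 bases to miR-409a-3p of the opposite strand, which has no column in the table, so reads of these strands cannot be told apart if strand was not used. The remaining members did not pass: miR-300-3p had 2.28 ± 1.06 and miR-127-3p 0.96 ± 0.81, the latter with 103 in the proximal tubule of rat 3 and 11.8 and 5.48 in the others.

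Both miRNAs of the miR-203 list, which are known from skin and other epithelia and lie on opposite strands of 1 locus, were higher in the proximal tubule. Among all 188 miRNAs 10.1% were higher. miR-203a-3p had values of 40.7, 50.1 and 69.2 against 0, 11.5 and 16.0 (log2 3.19 ± 0.76, adjusted p 0.0013). Without rat 1 its difference was 2.10 and the call was lost (adjusted p 0.2), as it was under quantile normalization. miR-203b-3p had values of 22.1, 38.4 and 52.5 against 5.07, 0.406 and 4.17 (log2 3.41 ± 0.85, adjusted p 0.0018, and 0.12 and 0.075 without rats 1 and 2). The groups did not overlap in either case. miR-203a-3p is complementary over 20 bases to miR-203b-5p, and miR-203b-3p to miR-203a-5p, which have no columns, so unless strand was used these arms cannot be told apart.

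The arms of miR-342, which lies within the gene Evl, were also higher. miR-342-3p had values of 13.1, 40.8 and 19.3 against 0, 5.48 and 0 (log2 3.64 ± 0.95, adjusted p 0.003). miR-342-5p had values of 24.0, 5.65 and 8.95 and was at 0 in all 12 collecting duct runs. Set against a floor of 3 reads over the group, a value of 0.287, it was at least 44.9-fold higher (adjusted p 0.019). Both lost the call without rat 1 or rat 2. The log2 difference of miR-342-3p was 2.09 with a pseudocount of 5. miR-455-5p was likewise at 0 in every collecting duct run and at least 23.9-fold higher, with an adjusted p of 0.049, a call that was lost without rat 1, without rat 2, without rat 3 and with a pseudocount of 5. miR-99b-3p and miR-138-5p were at 0 in those runs as well, at least 24.3-fold and 12.1-fold higher, but did not pass the test (adjusted p 0.098 and 0.22). Low counts were filtered from the table, and miRNAs at 0 in every collecting duct run passed that filter only through other libraries. These lower bounds on the fold are therefore not independent of the filter.

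miR-375-3p, best known from islet cells, had values of 434, 625 and 1417 in proximal tubule and 182, 281 and 158 in collecting duct. The groups did not overlap, though rat 3 was far above the other rats in the proximal tubule. The difference was 3.61-fold (log2 1.85 ± 0.33, adjusted p 2e-05), with 1.20 without rat 3 and an adjusted p of 0.15 without rat 1. miR-3557-5p, shown above with miR-378a-3p of the opposite strand, had values of 5891, 7476 and 7887 against 2498, 3362 and 2579. It differed 2.51-fold with no overlap (adjusted p 5.6e-05, and 0.13 without rat 1). The other arms of this locus, miR-3557-3p and miR-378a-5p, had equal values in every run, so strand did not separate those. Unless strand was used in counting, reads of miR-3557-5p and of miR-378a-3p, a miRNA of the Ppargc1b locus known from energy metabolism, cannot be told apart.

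A further 7 miRNAs were higher in the proximal tubule. miR-21-5p, known to rise in injury, had values of 1262, 1149 and 1278 against 522, 719 and 419.7 (log2 1.18 ± 0.28, adjusted p 0.0013). let-7g-5p was 2.35-fold higher (adjusted p 0.0011). It was the 1 member of 14 in the let-7 list to pass, against 10.1% higher among all 188 miRNAs. The median of the list was 0.35. Scaling moved that list: 5 members were higher and 0 lower with the same total, while let-7g-5p was higher and let-7e-5p and let-7i-5p were lower under each of the other 3 scalings. miR-425-5p was 3.20-fold higher (0.0085) and lies near miR-191a in the Dalrd3 locus, where miR-191a-5p did not pass. miR-181b-5p (log2 1.09), miR-3586-3p (0.99), miR-16-5p (0.98) and miR-28-3p (0.81) had adjusted p from 0.0072 to 0.032. All 7 of these lost the call without rat 1, and miR-181b-5p and miR-28-3p also without rat 2. Quantile normalization put miR-28-3p at 0.54, not past the threshold. Without rat 3 the difference of miR-425-5p was 1.06.

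**Figure D3:**
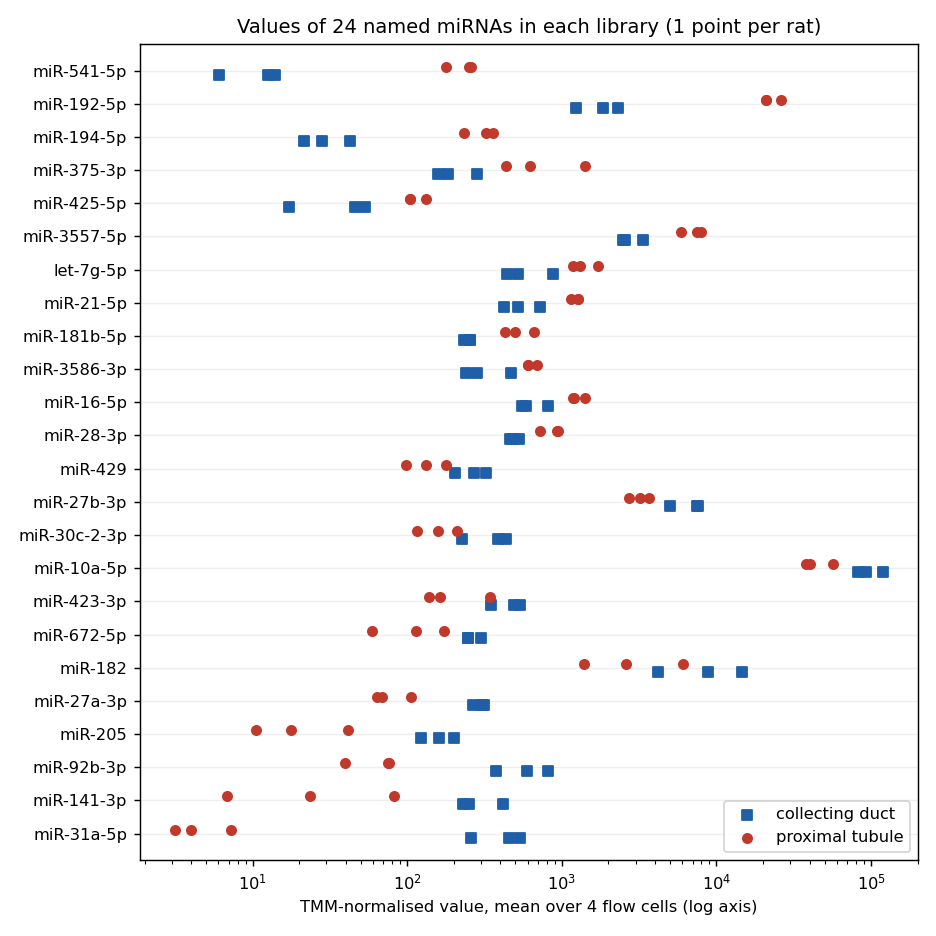
Points give the value of each library (log axis, TMM-normalised, mean over 4 flow cells) for 12 miRNAs higher and 12 lower in the proximal tubule, red circles for proximal tubule and blue squares for collecting duct, 3 rats each. For 23 of the 24 miRNAs the colours do not overlap, and miR-182 is the exception.

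In the other direction, miR-31a-5p had the largest fold of the table. Its values were 7.24, 3.15 and 4.02 in proximal tubule and 257, 457 and 536 in collecting duct. The groups did not overlap, and it was 80.3-fold higher in the collecting duct (log2 −6.33 ± 0.55, adjusted p 7.7e-14). miR-31a-5p is complementary over 19 bases to miR-31b.

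miR-9a-5p, best known from neural tissue, had values of 0.700, 0.976 and 6.69 against 57.1, 69.3 and 50.3 (log2 −4.59 ± 0.82, adjusted p 2e-05, and 0.12 without rat 1). miR-205, known from stratified and ductal epithelium, had values of 41.2, 10.4 and 17.8 against 122, 201 and 161 (log2 −2.97 ± 0.51, adjusted p 1.2e-05, and 0.053 without rat 1). The list of these 3 collecting duct miRNAs was drawn up with results of these libraries known, so its count of 3 of 3 lower adds no independent evidence.

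miR-92b-3p had values of 39.3, 75.9 and 74.7 in proximal tubule and 376, 597 and 811 in collecting duct. These did not overlap, and it was 9.37-fold higher in the collecting duct (log2 −3.23 ± 0.35, adjusted p 1.8e-10). It shares its seed with miR-25-3p and miR-92a-3p, printed above with it. These had log2 differences of −0.56 ± 0.35 and 0.30 ± 0.49 (adjusted p 0.28 and 0.68). Of the 10 measured members of the miR-17/92 list, miR-92b-3p was the only one to pass, and the list median was −0.39. Among all 188 miRNAs 12.2% were lower, so a count of 1 in 10 is near the share over all. With the same total miR-93-5p was also higher, and with that total without miR-10a-5p miR-25-3p was also lower.

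The miR-200 family, which keeps epithelial cells from a mesenchymal state, had 5 measured members, all with differences below 0 and a median of −0.98. By the test 2 of 5 were lower in the proximal tubule and 0 higher, against 12.2% lower and 10.1% higher among all 188 miRNAs. miR-141-3p had values of 23.4, 6.85 and 81.9 against 251, 418 and 229.7, with no overlap (log2 −3.54 ± 0.50, adjusted p 1.1e-07). The proximal tubule of rat 3 was the highest of its region, and the call was lost without rat 1 (adjusted p 0.15).

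miR-429 had values of 132, 97.6 and 178 against 269, 322 and 203 (log2 −0.98 ± 0.36, adjusted p 0.043). That call was lost in 12 of 16 other settings and without rat 1 or rat 2, and without rat 2 the difference was −0.61. miR-200b-3p (−0.83 ± 0.33, adjusted p 0.06), miR-200a-3p (−0.52 ± 0.39) and miR-200b-5p (−1.99 ± 0.95) did not pass. The direction of all 5 was the same under each of 4 other scalings, which called 1 to 3 of them lower.

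The miR-183/miR-96/miR-182 cluster, known from sensory organs, had 2 of 3 measured members lower in the proximal tubule, against 12.2% of all 188 miRNAs. miR-182 had values of 1385, 2613 and 6072 against 4192, 14580.1 and 8811. The groups overlapped, since the proximal tubule of rat 3 was above the collecting duct of rat 1, but each rat was lower in its proximal tubule (log2 −1.54 ± 0.28, adjusted p 2e-05, and 0.17 and 0.065 without rats 1 and 2). miR-96-5p had values of 0, 20.8 and 5.15 against 6.81, 28.4 and 49.6 (log2 −2.42, adjusted p 0.042). That call was lost in 13 of 16 other settings and without any of the 3 rats, and the difference was −1.41 with a pseudocount of 5. miR-3553, complementary to miR-183-5p, had −0.69 and did not pass.

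miR-27a-3p and miR-27b-3p differ from each other at 1 base, so reads could be split between them. miR-27a-3p had values of 64.0, 68.3 and 105 against 266, 313 and 305, 3.80-fold higher in the collecting duct (adjusted p 5.6e-05, and 0.15 without rat 1). miR-27b-3p had values of 2726, 3194 and 3659 against 7449, 7579.5 and 5003, 2.08-fold higher (adjusted p 0.0018, and 0.23 and 0.1 without rats 1 and 2). Neither pair of groups overlapped. They belong to the miR-23/miR-27/miR-24 clusters on chromosomes 19 and 17, where all 7 measured members were below 0 with a median of −0.71. Of the 7, 2 were lower by the test, against 12.2% of all 188 miRNAs. When libraries were set to the same total, 1 of the 7 turned above 0.

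The miR-30 family, abundant in kidney epithelium, had 3 of 9 measured members lower in the proximal tubule and 0 higher. Among all 188 miRNAs 12.2% were lower and 10.1% higher. The list median was −0.57, with 4 members above 0. miR-30a-5p had values of 2493, 3177 and 3618 against 4932, 6616 and 4815, and the 2 groups did not overlap (log2 −0.82 ± 0.26, adjusted p 0.014). miR-30a-3p, its partner arm, had −0.92 ± 0.29, and miR-30c-2-3p −1.09 ± 0.34 (both 0.014). In GRCr8 these 3 lie on 1 strand of chromosome 9, with the miR-30a arms from 1 hairpin, so they are not 3 separate cases. All 3 lost the call without rat 1 and without rat 2. Under a total without miR-10a-5p, 1 member of 9 was above 0 instead of 4.

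The remaining lower calls were miR-221-3p with 0, 14.3 and 24.2 against 47.1, 60.0 and 47.1 (adjusted p 0.0024), miR-672-5p at −1.32 (0.0072), miR-423-3p at −1.19 (0.005) and miR-423-5p at −0.86 (0.013), miR-150-5p at −1.69 (0.017), miR-125a-5p at −0.70 (0.043) and miR-126a-5p at −0.85 (0.017). miR-221-3p, known from endothelial and proliferating cells, had a difference of −1.67 without rat 1, where its call was lost (adjusted p 0.28). The other 6 lost the call without rat 1 and without rat 2, and miR-672-5p had −0.82 without rat 3. miR-210-3p, the hypoxia miRNA, had values of 2.94, 3.09 and 8.75 against 23.4, 42.0 and 22.4 (log2 −2.48 ± 0.82, adjusted p 0.019, and 0.23 and 0.22 without rats 1 and 2). Since miR-3574 has identical values, the 42 calls hold 1 repeated value, and the strand it came from cannot be told.

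**Figure D4:**
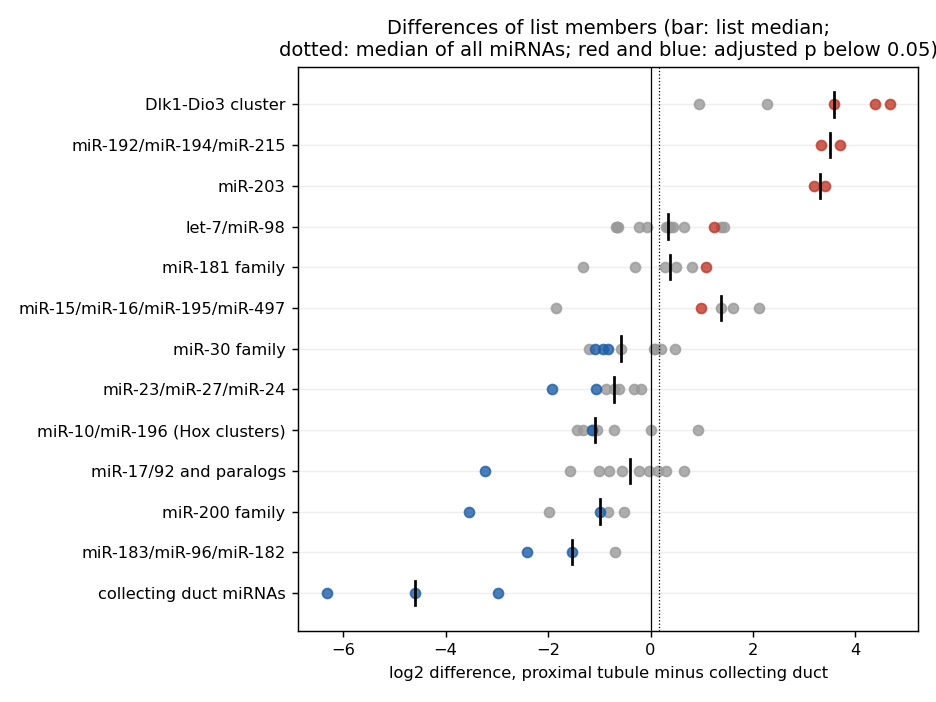
Each row is a list of related miRNAs, each point a measured member by its log2 difference (proximal tubule minus collecting duct), with red and blue for adjusted p below 0.05 and the black bar for the list median. The Dlk1-Dio3, miR-192/miR-194 and miR-203 lists lie to the right of 0, and the collecting duct, miR-200, miR-23/miR-27/miR-24 and miR-182 cluster lists to the left.

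In each of the next families at most 1 measured miRNA passed the test. Among all 188 miRNAs 12.2% were lower and 10.1% higher, so 1 call in so small a list says little about that list. Of 8 measured miRNAs of the Hox-encoded miR-10/miR-196 list, miR-10a-5p was lower in the proximal tubule and the other 7 did not pass. In that list 6 of 8 differences were below 0, with a median of −1.09. Of 6 in the miR-125 list miR-125a-5p passed (median −0.09), and of 6 in the miR-181 list miR-181b-5p passed (median 0.39). The miR-29 list, whose targets include collagens, had 0 of 3 called and a median of −0.29, but miR-29a-3p was lower under 3 of the 4 other scalings. The miR-26 list had 0 of 3 called and a median of −0.03. With the same total the medians of the miR-125 and miR-26 lists turned above 0, to 0.13 and 0.20. miR-103-3p and miR-107-3p, known from lipid and glucose metabolism, differ from each other at 1 base and had 0.65 and 0.60 (adjusted p 0.21 and 0.19). Both passed when libraries were set to the same total or quantile normalized. miR-204-5p, known from renal and ocular epithelium and encoded in Trpm3, had values of 20.3, 61.4 and 111 against 22.4, 35.3 and 22.2, with overlap and an adjusted p of 0.24.

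Markers of other cell types were measured in both regions. The endothelial miR-126a arms summed to 1249 to 1801 in proximal tubule and 1935 to 3170 in collecting duct, and miR-126a-5p was among the lower calls. Leukocyte miRNAs summed to 316 to 685 and 411 to 476, with miR-150-5p lower and the other 3 measured not past the threshold. Most of that sum was miR-146a-5p, with 286, 470 and 634 against 297, 373 and 320. It was the 1 of 4 with a difference above 0 (log2 0.41), and the list median was −1.13. miR-143-3p and miR-145-5p, of smooth muscle and mesangial cells, summed to 6119 to 8034 and 6635 to 8080, with 0 of 2 called. The mesenchymal miR-199a arms summed to 76.7 to 130.2 and 69.3 to 172, with 0 of 2 called, and none of the 3 listed red cell miRNAs is in the table. The part of other cell types in these differences was not tested.

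Only the 172 miRNAs with a matched sequence entered the seed groups. Summed over those of 1 seed, 32 of 130 groups differed (24.6%). Of the 22 groups with more than 1 miRNA, 4 differed. The seed of miR-25, miR-92a and miR-92b had summed values of 183, 353 and 462 in proximal tubule and 639, 995 and 1124 in collecting duct (log2 −1.52 ± 0.30). The groups did not overlap. Most of the gap came from miR-92b-3p, whose values are given above and which was the only member to pass alone.

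The miR-27 seed had −1.09 ± 0.26 and the miR-30 seed −0.80 ± 0.25. The latter summed miR-30a-5p, miR-30c-5p and miR-30e-5p only. miR-30d-5p, without a matched sequence, was left out and had a log2 difference of 0.08. The seed of miR-15b, miR-16, miR-195, miR-322 and miR-497 was higher in the proximal tubule, with 1243, 1215 and 1460.2 against 574, 856 and 631 (log2 0.94 ± 0.29). Most of that sum was miR-16-5p, with 1201, 1184 and 1413 against 549, 817 and 585. miR-15b-5p, encoded beside miR-16 in Smc4, had −1.85 ± 0.99 and did not pass (adjusted p 0.19). The seed of let-7, with 9 miRNAs, had 0.15 ± 0.25 (adjusted p 0.66).

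For 30 hairpins both arms were in the table, so that their ratio could be taken within each library. By limma 0 of 30 ratios (0%) differed after adjustment, against 3 at an unadjusted p below 0.05, and the count after adjustment was 0 in every setting tried. Those 3 were miR-99b, miR-653 and miR-26b, each with an adjusted p of 0.11. In 23 of 30 hairpins the differences of both arms had the same sign. The arms of miR-30a had log2 differences of −0.82 and −0.92, and those of miR-423 −0.86 and −1.19.

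**Figure D5:**
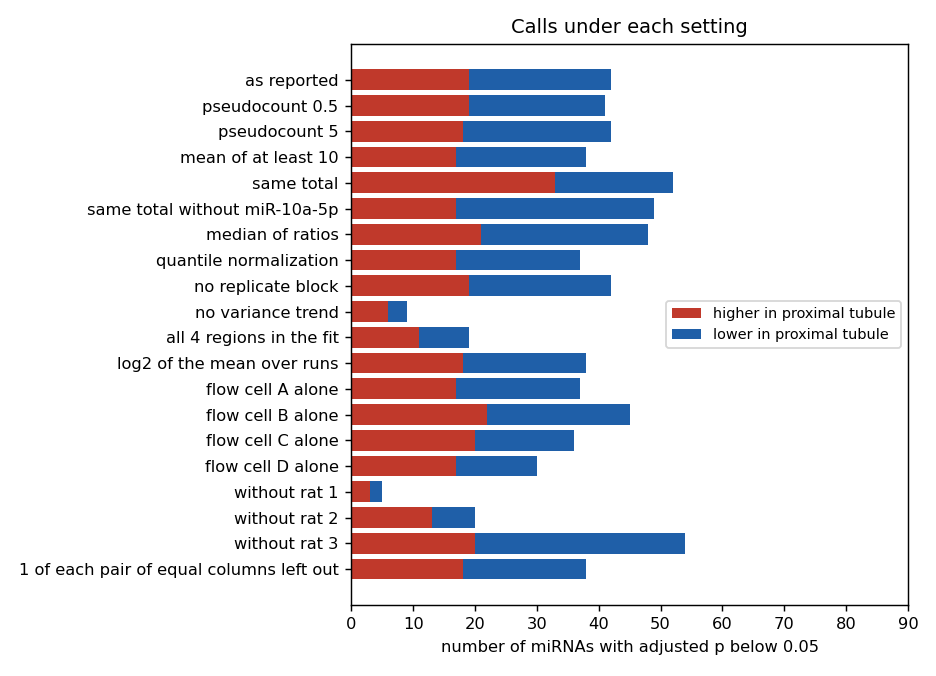
Bars count the miRNAs with an adjusted p below 0.05 under each setting, red for higher and blue for lower in the proximal tubule. The count is 42 as reported, between 30 and 52 under other scalings, pseudocounts and single flow cells, and lowest at 5 without rat 1 and 9 without the variance trend.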

How the data were processed

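Small RNA was read in 3 proximal tubule and 3 collecting duct libraries. The deposited values are a signal, made by the authors from read counts by TMM normalization with low counts filtered, per the file name. The submitters' processing notes name Bowtie 1.0.0, Bowtie2 2.2.5, Partek 6.0 and build rn6. Strand and multi-mapping settings are not given in the sources used here.

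The values were used as deposited. log2(value + 1) was averaged over 4 runs to 1 value per rat and region, so n counts rats. limma 3.58.1 in R 4.3.3 fitted region and rat (lmFit, eBayes with a variance trend), two-sided, with Benjamini-Hochberg adjustment over 188 miRNAs at 0.05. There are 2 residual degrees of freedom, and 48.6 prior ones, so small p-values rest on a variance shared between miRNAs. Rat is a block because same-numbered libraries come from the same animal. Their deviations correlated at 0.17, −0.04 and −0.01 over 127 miRNAs. Fold changes are on the log2(value + 1) scale, which understates those of low miRNAs. Reads were estimated from the steps between low values. Of the values of at most 30 reads, 88.3% to 98.6% came out whole (tolerance 0.03), so no count test was run. Floors of 3 reads cover counting error only. The script was tested on simulated data whose noise followed a variance trend and held no rat effect. That test therefore cannot speak to calls that rest on the trend.

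Named are up to 12 miRNAs per direction with the largest difference, an adjusted p below 0.05, 1 sign in 3 of 3 rats and a mean of at least 100, the 5 most abundant per region, members of 32 lists, and miRNAs at 0 in every run of 1 region. Members and lists were chosen with earlier results of these data known. Alternatives were other scalings, pseudocounts, a low filter, no block, no trend, all 4 regions, single flow cells and each rat left out. Leaving out 1 of each pair of equal columns was chosen after seeing the data. The other 5 libraries entered only the fit on all regions.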

Additional observations from a re-analysis of the deposited data

How the results depend on the processing

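The 42 called miRNAs kept their direction in each of the 19 alternatives that tested them, except that quantile normalization put miR-10a-5p at 0. The filter on means under 10 left out miR-342-5p and miR-455-5p, and the equal-column setting left out miR-3574. Of them, 8 stayed past the threshold in all 16 alternatives that keep every rat, and 5 also without each rat in turn. For each of these 5 the largest adjusted p over the 16 alternatives was 0.02. Without the variance trend 9 miRNAs were called (6 higher, 3 lower) and 12 seed groups. With all 4 regions in the fit the counts were 19 (11 higher, 8 lower) and 18. Flow cell D alone gave 13 lower and 21 seed groups, and the same total gave 33 higher. Leaving out 1 rat gave 5 to 54 calls, 3 to 20 higher, 2 to 34 lower and 4 to 33 seed groups. Each such fit has 1 residual degree of freedom. Without the replicate block the counts were 42, 19 higher and 23 lower, with 30 seed groups, and 41 of the 42 calls were shared. Scaling moved the median log2 difference of all miRNAs by 0.22 (same total), −0.24 (same total without miR-10a-5p) and −0.16 (quantile normalization), and leaving out miRNAs with a mean under 10 moved it by −0.11. With 1 of each pair of equal columns left out, 38 of 184 miRNAs were called. Of 51 miRNAs whose higher mean was under 10, 1 was called, against 12 of the 25 most abundant ones. The part of depth in this was not tested.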
